A study of Solanum lycopersicum with 24 samples.

Results

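The response of tomato (Solanum lycopersicum) leaves to drought was set against their response to heat, using all 24 of the 24 arrays of the series, 12 from a drought experiment and 12 from a heat experiment. For each probe set the Treated minus Control difference was averaged over the tolerant and the susceptible genotype of an experiment, and the heat average was then subtracted from the drought average. Drought-treated plants went without water for 7 days and heat-treated plants were held at 40 C for 60 min, each against plants grown without stress in a greenhouse, and all leaves were taken at flowering. The 8 groups, each of 3 arrays, were the treated and control plants of a drought tolerant, a drought susceptible, a heat tolerant and a heat susceptible genotype. The labels name no cultivar and do not say that the experiments shared genotypes. Nor do they say that the replicates were separate plants, so every p-value reflects the variation among these arrays alone, and that variation may be technical. The kind of stress, its duration and the experiment cannot be told apart.

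Plants that lose water accumulate abscisic acid, a hormone that closes stomata and induces dehydrins and other protective proteins, while leaf growth and photosynthesis decline. Heat unfolds proteins within minutes, and heat shock factors then induce small heat shock proteins and larger chaperones that hold or refold them. Growth arrest and a shift of sugar and amino acid metabolism are known from both stresses.

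Signal is given as deposited log2 values per probe set, so that a difference of 1 is a 2-fold change, and a response or a difference of responses is given with its standard error from a limma fit of 8 group means. A probe set was called at a Benjamini-Hochberg adjusted p under 0.05 over the 10038 probe sets tested. The arrays of tolerant plants stood apart. The SD between replicates of a probe set had a median of 0.391 in treated and 0.303 in control drought tolerant plants, and of 0.0741 in treated and 0.0852 in control drought susceptible plants, and the spike-in bioB averaged 10.8 to 11.4 on the drought tolerant arrays and 5.75 to 6.91 in the other groups. Since the model gave each probe set 1 variance for all groups, errors of tolerant plants may be too small. The probe sets for reporter genes, which are not tomato sequences and serve as a measure of background, had a median that was 0.17 higher in drought-treated than in control plants and 0.52 lower in heat-treated than in control plants (-0.92 in heat tolerant plants). The part of this shift in the results was not tested. A group is called near background where at least 2 of its 3 arrays did not exceed the 95th percentile of those reporter probe sets. Light-harvesting and photosystem transcripts were high, as in green tissue, which does not set leaves apart from other green organs. Of the 10 genes on a list of these, 8, among them PETE, CAB4 and CAB5, averaged 11.04 to 13.0 in every control group. PSBR and psbF averaged 6.74 to 9.38. The floral regulators LOC543555 (APETALA3 homolog) and LeAP1, 2 of the 5 genes on a flower and pollen list, were near background in 7 of 8 groups. The control group means of the other members of that list, TDR6, TPP3 and TDR3, lay between 6.10 and 11.43. On a fruit ripening list of 4 genes, LeFUL2 was near background in 6 of 8 groups. The control group means of its other members, DDTFR10/A, ASR1 and DDTFR18, lay between 6.57 and 11.75. In bulk leaves, fewer cells of a type and less RNA per cell cannot be told apart.

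The drought response was higher than control for 3320 probe sets (33.1% of those tested) and lower for 2599 (25.9%), while the heat response was higher for 2472 (24.6%) and lower for 1730 (17.2%). The drought minus heat difference was called higher for 2409 (24.0%) and lower for 2587 (25.8%). The higher share depended on scaling: it was 48.2% of the calls on the deposited values and 62.2% after each array was centred on its median, which moved the median difference of all probe sets to 0.25, against 0.06 on the deposited values. For heat calls the higher share was 58.8% on the deposited values and 34.2% after centring. Drought responses were also the larger, with a median absolute size of 0.49 over all probe sets, against 0.34 for heat. Across the 10038 probe sets, which are not independent replicates, the mean responses to drought and to heat had a Pearson r of 0.23. Between a single drought genotype and a single heat genotype r was 0.13 to 0.24. These values were below the 0.49 between both drought genotypes and the 0.42 between both heat genotypes.

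Each probe set was then placed by its pair of responses. It was drought-specific where the difference and the drought response were called, the drought response was at least 1 in size with the same sign in both genotypes, and the heat response was under 0.5 in size. Heat-specific is the mirror of this, and shared or opposite needs both responses called and at least 1 in size, with equal or opposite signs. By these limits 1204 probe sets were drought-specific (527 higher, 677 lower), 292 were heat-specific (176 higher, 116 lower), 273 were shared (178 higher, 95 lower) and 41 were opposite (10 higher under drought, 31 lower under drought). The classes rest on size limits and on a small measured response, which does not show that a response was absent. The small response is a mean of both genotypes. It was at least 0.5 in size in 1 or both genotypes for 529 of the 1204 drought-specific (43.9%) and 172 of the 292 heat-specific probe sets (58.9%), and of that size with opposite signs in both for 62 and 53 of them. A measure of RNA integrity, the log2 signal of the 3′ minus that of the 5′ control probe sets, was 0.88 lower in drought-treated than in control plants (1.25 lower in tolerant plants) and 0.37 lower in heat-treated than in control plants. The groups of the drought experiment averaged 0.74 to 2.89 on this measure and those of the heat experiment 3.15 to 4.45. RNA integrity thus also differed between the experiments that are compared. With this measure as a covariate 955 drought-specific and 206 heat-specific probe sets kept their class, and with arrays raised to the reporter percentile 845 and 175 did. Members just inside the limits had a drought response of 1.00 or a heat response of 0.50. Of the probe sets called higher under drought, 1295 (39.0%) were also called higher under heat, which is 52.4% of those called higher under heat.

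**Figure D1:**
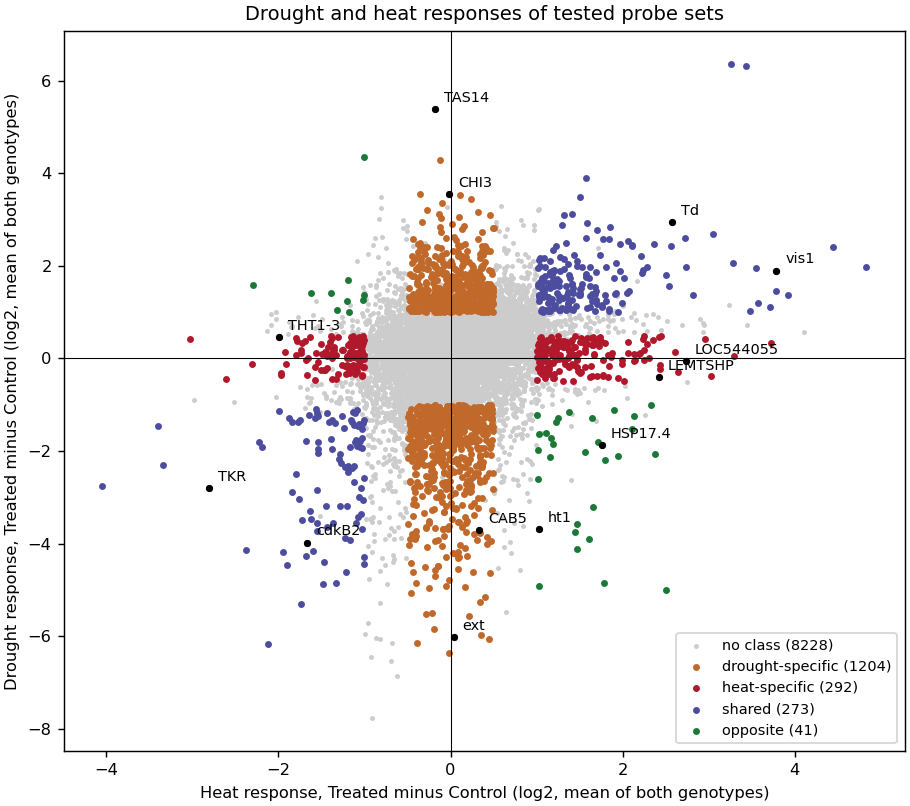
Drought response (vertical axis) against heat response (horizontal axis), each the mean Treated minus Control difference of both genotypes on the log2 scale, for 10038 probe sets coloured by class. The 1204 drought-specific probe sets form the vertical arms and the 292 heat-specific ones the horizontal arms, and black points mark named genes.

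Among drought-specific increases, the dehydrin TAS14, a hydrophilic protein that accumulates in drying and salt-stressed tomato tissue, had the largest difference. In tolerant plants it stood at 11.31, 11.37 and 11.55 under drought, against 4.74, 4.32 and 5.01 in controls, which were near background. In susceptible plants it stood at 12.11, 12.30 and 12.26 under drought, against 8.11, 8.25 and 8.22 in controls. Every droughted array was above every control array of its genotype by over 3 log2 units. In the heat experiment all 12 arrays lay between 4.74 and 6.80. The heat response was -1.01 in tolerant and 0.64 in susceptible plants, so TAS14 met the size limit by averaging. Heat tolerant controls stood at 6.17, 5.68 and 6.80, in a group whose 95th reporter percentile averaged 6.22. The reporter median response of heat tolerant plants was -0.92, and its part in the -1.01 was not tested. The drought response was 5.38 ± 0.17 (4.82 with arrays under the reporter percentile raised to it), the heat response -0.18 ± 0.17 and the difference 5.56 ± 0.24 (limma, adjusted p = 6.13e-13).

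The other 4 named drought-specific increases were a pair of chitinases, a proteinase inhibitor and a lipoxygenase. The chitinase CHI3, an enzyme that cleaves fungal cell walls, stood at 12.19, 12.17 and 12.18 in droughted tolerant plants, against 11.18, 10.84 and 11.01 in their controls. In susceptible plants it stood at 13.34, 13.45 and 13.50 under drought, against 7.51, 7.68 and 7.35 in controls. Its arrays in the heat experiment, treated and control, all lay between 7.40 and 8.22. Droughted and control arrays were free of overlap in both genotypes, which naming required and which held for 40.6% of all probe sets. The difference of CHI3 was 3.56 ± 0.12 (limma, adjusted p = 1.69e-14). The proteinase inhibitor ER1, of a family that blocks the digestive proteases of insects, differed by 4.40 ± 0.25. Its heat response of -0.12 joined 1.12 in tolerant with -1.36 in susceptible plants, so ER1 met the size limit by averaging. The lipoxygenase TomloxE, an enzyme that oxidises fatty acids, differed by 2.15 ± 0.19 and the chitinase CHI17 by 1.79 ± 0.10.

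Cell wall enzymes made up 3 of the 5 named drought-specific decreases. The endo-xyloglucan transferase ext, which cuts and rejoins xyloglucan chains in growing walls, stood at 6.07, 6.48 and 6.27 in droughted tolerant plants, against 10.60, 10.56 and 10.63 in their controls. In susceptible plants it stood at 4.26, 4.29 and 3.96 under drought, against 12.01, 11.86 and 11.81 in controls. The droughted susceptible arrays were near background, while the 12 arrays of the heat experiment all lay between 10.89 and 11.22. The drought response was -6.02 ± 0.08, the heat response 0.04 ± 0.08 and the difference -6.06 ± 0.12 (limma, adjusted p = 8.61e-18). The endo-1,4-beta-glucanase cellulase differed by -4.46 ± 0.33 and the xyloglucan endotransglucosylase-hydrolase XTH7 by -4.25 ± 0.16. The other two were the wound/stress protein LOC543932, at -4.43 ± 0.27, and the alpha-galactosidase LeaGal, at -4.11 ± 0.17. LOC543932 also met the size limit by averaging, since its heat response of 0.42 joined 1.77 in tolerant with -0.92 in susceptible plants.

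Among the 5 named heat-specific increases LEMTSHP, a small heat shock protein of mitochondria, had the largest difference, while differences in the class reached -3.4. It stood at 10.70, 10.79 and 10.80 in heated tolerant plants, against 8.98, 9.04 and 8.53 in their controls, and at 11.93, 11.98 and 11.93 in heated susceptible plants, against 9.13, 9.06 and 8.89 in theirs. In the drought experiment it stood at 8.48, 8.28 and 8.27 in droughted susceptible plants, against 9.29, 9.18 and 8.99 in their controls. Heated arrays were thus all above their controls, as naming required. Droughted susceptible arrays were all below theirs, and both drought tolerant groups were near background. The drought response was -0.41 ± 0.19, which was not called, the heat response 2.42 ± 0.19 and the difference -2.83 ± 0.27 (limma, adjusted p = 5.06e-08).

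The translation factor gene LOC544055 (EF 1-alpha) had a heat response of 2.73 ± 0.19 and a difference of -2.79 ± 0.27. Its near-zero mean drought response of -0.06 joined -1.35 in tolerant with 1.22 in susceptible plants, so the gene met the size limit by averaging. The same held for the endoplasmic reticulum auxin binding protein ERabp1, with -0.96 in tolerant and 1.24 in susceptible plants under drought and a difference of -2.47 ± 0.21. The ethylene-forming ACC oxidase ACO6 differed by -1.81 ± 0.27, and its mean drought response of -0.5, at the size limit, joined 0.2 in tolerant with -1.2 in susceptible plants. Its heat response was 2.30 in tolerant and 0.31 in susceptible plants. The small GTPase SAR2, which acts in vesicle traffic from the endoplasmic reticulum, differed by -1.76 ± 0.22. Both of its drought tolerant groups were near background. It stood at 8.66, 8.78 and 9.05 in heated tolerant plants, against 8.07, 8.06 and 7.44 in controls. In heated susceptible plants it stood at 10.79, 10.86 and 10.76, against 8.10, 8.06 and 7.92 in controls.

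Heat-specific decreases had differences above 0, since the heat response is subtracted. The tyramine transferase THT1-3, which makes wall-bound phenolic amides, stood at 8.00, 7.90 and 8.07 in heated susceptible plants, against 10.94, 10.79 and 10.81 in their controls, and its difference was 2.44 ± 0.24. Its mean drought response of 0.45 joined -0.49 in tolerant with 1.4 in susceptible plants, where it stood at 11.21, 11.16 and 11.37 under drought, against 9.85, 9.94 and 9.75 in controls. Another probe set of the same gene did not follow it, with a heat response of 1.03 and a difference of 1.09, so the heat decrease of THT1-3 rests on 1 probe set. The jasmonate-responsive gene LEJA3 differed by 1.78 ± 0.11, the wall enzymes tXET-B2 and XTH3 by 1.2 ± 0.14 and 0.93 ± 0.10, and the gamma-thionin TGAS118, of a family of small defence peptides, by 0.90 ± 0.17. From the auxin list, the auxin-regulated kinase LOC543684 had a heat response of -3.03 ± 0.23 and a difference of 3.46 ± 0.33, with 4 groups near background.

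**Figure D2:**
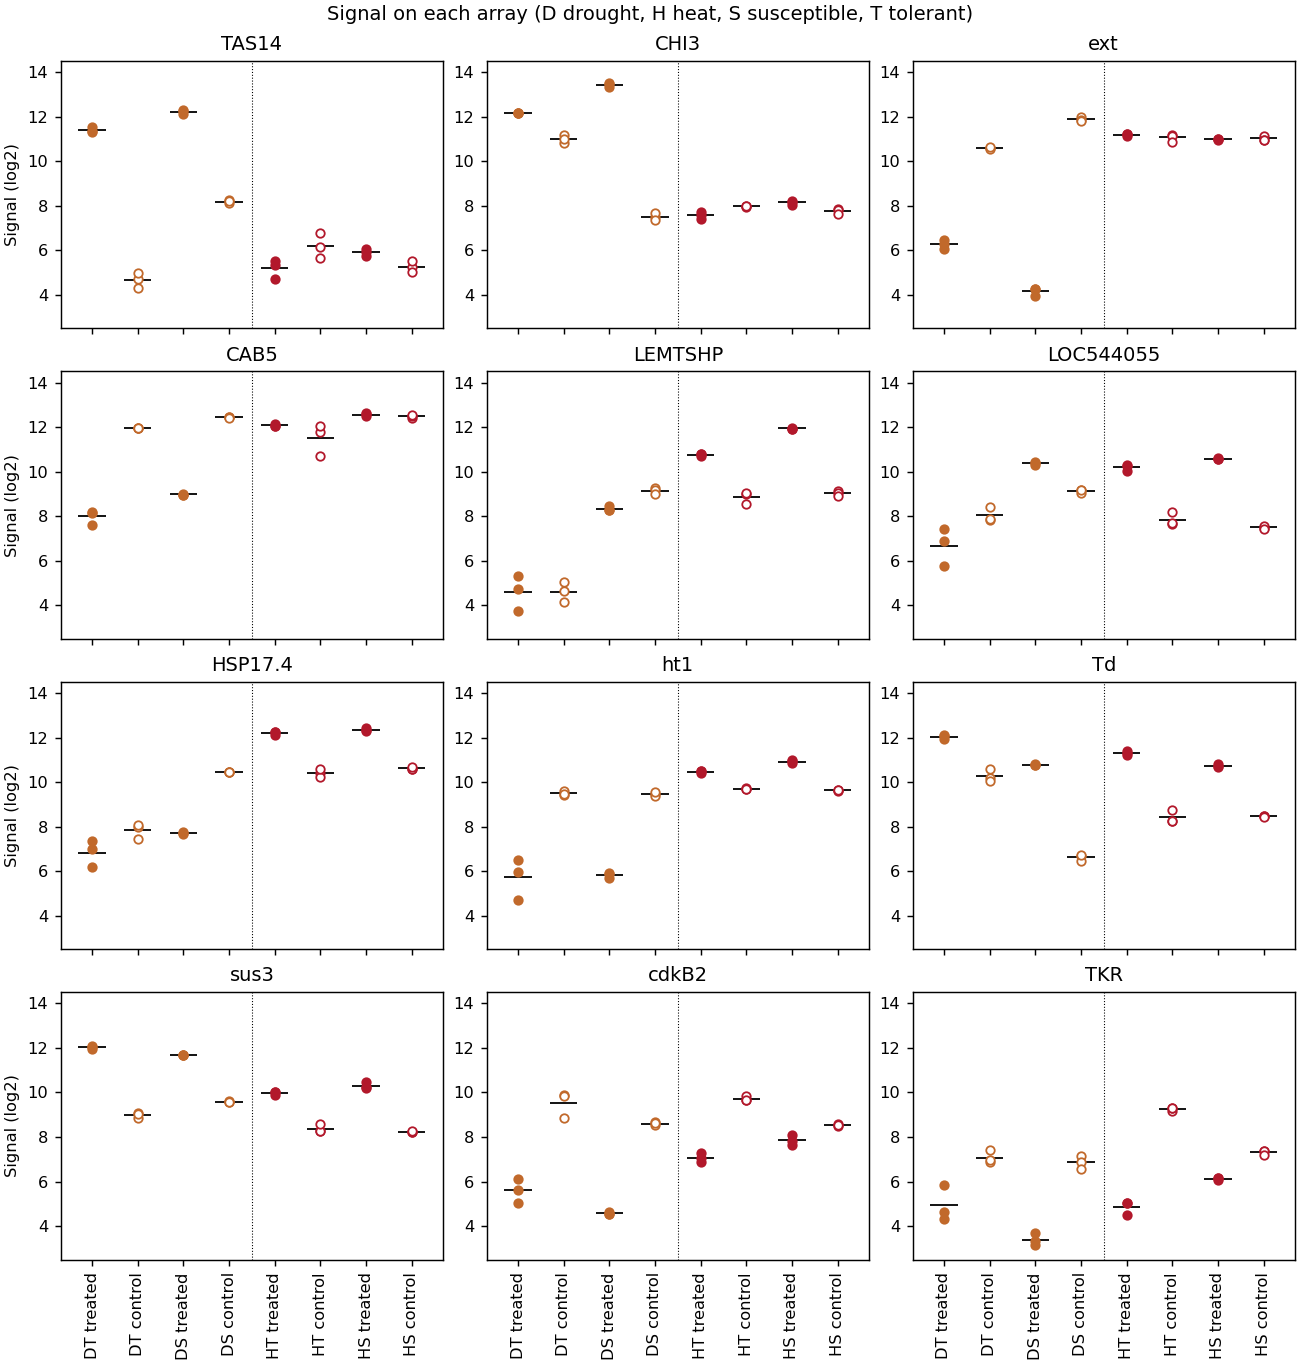
Log2 signal of 12 genes on each of the 24 arrays, treated (filled) left of control (open), drought in orange and heat in red, with a bar at each group mean. TAS14 and CHI3 are higher and ext and CAB5 lower in droughted than in control plants, LEMTSHP is higher in both heated groups than in their controls, and HSP17.4 and ht1 are lower under drought and higher under heat.

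Genes that went opposite ways were the fewest, and all 4 named ones fell under drought and rose under heat. HSP17.4, a cytosolic class II small heat shock protein, stood at 6.18, 6.99 and 7.34 in droughted tolerant plants, against 7.97, 8.09 and 7.43 in their controls, and at 7.67, 7.77 and 7.70 in droughted susceptible plants, against 10.47, 10.44 and 10.45 in theirs. In the heat experiment it stood at 12.23, 12.23 and 12.10 in heated tolerant plants, against 10.40, 10.22 and 10.60 in controls, and at 12.35, 12.28 and 12.41 in heated susceptible plants, against 10.57, 10.60 and 10.66 in controls. Treated and control arrays were free of overlap in each of the 4 pairs. That was a condition for naming a gene of this class, and 15.8% of all probe sets met it. The drought response was -1.87 ± 0.15, the heat response 1.76 ± 0.15 and the difference -3.62 ± 0.21 (limma, adjusted p = 3.46e-11).

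BiP/grp78, the main HSP70-type chaperone of the endoplasmic reticulum, had a drought response of -1.38 ± 0.10, a heat response of 1.22 ± 0.10 and a difference of -2.60 ± 0.14. Its heat response was 0.39 in tolerant and 2.06 in susceptible plants. The hexose transporter ht1, which carries sugars across membranes, stood at 5.86, 5.94 and 5.70 in droughted susceptible plants, against 9.45, 9.36 and 9.54 in controls, and its heated susceptible arrays stood at 10.85, 10.99 and 10.93, against 9.62, 9.66 and 9.65 in controls. Its difference was -4.71 ± 0.26, with -4.53 in tolerant and -4.90 in susceptible plants, which were not called different. The wound-inducible carboxypeptidase LOC544223 differed by -3.60 ± 0.30. No named gene with the opposite pattern, higher under drought and lower under heat, met the conditions for being named.

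Shared increases included enzymes of amino acid and sugar metabolism. Threonine deaminase, Td, the first enzyme of isoleucine synthesis and also a defence protein in tomato, stood at 12.06, 11.92 and 12.11 in droughted tolerant plants, against 10.17, 10.60 and 10.07 in controls, and at 10.75, 10.77 and 10.82 in droughted susceptible plants, against 6.69, 6.48 and 6.73 in controls. In heated tolerant plants it stood at 11.29, 11.38 and 11.20, against 8.26, 8.25 and 8.74 in controls, and in heated susceptible plants at 10.72, 10.80 and 10.69, against 8.48, 8.50 and 8.42 in controls. All 4 pairs were free of overlap, as naming required, and the responses were 2.95 ± 0.10 to drought and 2.57 ± 0.10 to heat. Their difference of 0.37 ± 0.14 (limma, adjusted p = 0.0336) lost its call when any of 9 arrays was left out, with an adjusted p of 0.0502 to 0.0657. Of these arrays 4 were in the drought experiment (1 susceptible control, 1 susceptible treated and 2 tolerant controls) and 5 in the heat experiment (2 susceptible controls, 2 susceptible treated and 1 tolerant treated).

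Sucrose synthase sus3, which splits sucrose for use in metabolism, rose by 2.58 ± 0.07 under drought and 1.84 ± 0.07 under heat. Asparagine synthetase AS1, which stores nitrogen as asparagine, rose by 1.98 ± 0.10 under drought and 2.74 ± 0.10 under heat. The alcohol dehydrogenase ADH2 rose by 2.92 and 1.59, and the beta-galactosidase tEG3 by 3.48 and 1.5, under drought and under heat. All 4 differed between the stresses, from -0.76 ± 0.13 for AS1 to 1.98 ± 0.29 for tEG3, so that a shared direction did not mean a shared size.

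Shared decreases included genes of dividing cells. The B2-type cyclin dependent kinase cdkB2, which acts at entry into mitosis, stood at 4.55, 4.53 and 4.63 in droughted susceptible plants, against 8.67, 8.53 and 8.62 in controls, and at 7.66, 8.07 and 7.83 in heated susceptible plants, against 8.48, 8.58 and 8.54 in controls. It fell by 3.98 ± 0.17 under drought and 1.67 ± 0.17 under heat, a difference of -2.32 ± 0.24. Cyclin A1 (CycA1) fell by 3.56 under drought and 1.55 under heat, and the dem protein by 2.51 and 1.79. The kinesin-related TKR, a microtubule motor, had mean responses of -2.80 ± 0.19 to drought and -2.80 ± 0.19 to heat. Its difference had opposite signs in the genotypes. Droughted tolerant plants stood at 4.64, 5.86 and 4.34, against 6.86, 6.95 and 7.41 in controls, and susceptible ones at 3.67, 3.14 and 3.32, against 7.13, 6.88 and 6.56. Heated tolerant plants stood at 5.03, 5.03 and 4.51, against 9.16, 9.31 and 9.32, and susceptible ones at 6.08, 6.15 and 6.16, against 7.39, 7.39 and 7.20. Both droughted groups of TKR were near background, and with arrays raised to the reporter percentile its drought response was -1.67 and its difference 1.09, against 0.00 ± 0.28 on the deposited values. The proline-rich protein TPRP-F1 differed by -2.93 ± 0.32 on the deposited values and by -1.72 with raised arrays.

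Gene lists, defined by patterns on names, were read for their counts. Names came only from the authors' deposited tables, which list genes chosen on these samples for responses that differ, so these counts are not independent evidence of a direction. Over all 411 named genes the difference was called higher for 133 and lower for 187, with a median of -0.28, against a median of 0.06 over all probe sets. The drought response was higher for 160 of them (38.9%) and lower for 184 (44.8%), and the heat response higher for 164 (39.9%) and lower for 114 (27.7%).

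All 5 small heat shock proteins rose under heat (median 3.05), whereas under drought 3 rose and 1 fell (median 1.46). The difference was lower for 4 and not called for 1. The members vis1, leer-sHSP and HSP21, chosen after their values were seen, rose under both stresses in the mean of both genotypes. In droughted tolerant plants leer-sHSP stood at 4.98, 6.68 and 5.26, against 5.59, 4.87 and 5.24 in controls, which overlap. In droughted susceptible plants it stood at 9.10, 8.96 and 9.01, against 6.63, 6.45 and 6.45 in controls. Under heat vis1 stood at 11.73, 11.80 and 11.75 in susceptible plants, against 7.62, 7.61 and 7.53 in controls, and it rose by 1.90 ± 0.15 under drought and 3.78 ± 0.15 under heat. Both drought tolerant groups of vis1 were near background. HSP21 rose by 2.68 under drought and 3.05 under heat, but the drought response was 0.41 in tolerant and 4.96 in susceptible plants. Cytosolic HSP17.4 fell under drought, while vis1, leer-sHSP and HSP21 rose in the mean of both genotypes.

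Of 10 large chaperones and co-factors, 8 rose and none fell under heat, while 2 rose and 5 fell under drought. The difference was lower for 8 and higher for none. The list also counts ER24, by its title an ethylene-responsive transcriptional coactivator and not a chaperone, which differed by -2.90 ± 0.39. Among members chosen after their values were seen, the Hsp90-type chaperone LeHsp90-1 differed by -2.28 ± 0.22 and the HSP70 cognate ER21 by -1.25 ± 0.17. LeHsp90-1 stood at 9.04, 8.87 and 7.98 in droughted tolerant plants, against 11.33, 11.38 and 11.40 in controls. In droughted susceptible plants it stood at 11.00, 11.19 and 11.10, against 11.02, 10.96 and 11.08 in controls. TFHS1, a heat shock protein outside both lists that was also chosen after its values were seen, ran the other way, with 2.12 under drought, 0.78 under heat and a difference of 1.34 ± 0.13.

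Cell wall genes fell mostly under drought. Of 32 members, 25 fell and 3 rose under drought and 14 fell and 5 rose under heat, and the difference was lower for 22 and higher for 6 (median -1.36). The expansin LeEXP2, a protein that lets growing walls extend, had responses of -4.57 under drought and 0.81 under heat, a difference of -5.38 ± 0.21. The expansins exp11 and exp9, chosen after their values were seen, had differences of -4.69 ± 0.18 and -3.75 ± 0.25. The differences above 0 included XET4, at 1.43 ± 0.16, and the extensin LOC544058, at 1.2 ± 0.21, which was near background in all 8 groups. The name patterns missed tEG3 and tXET-B2, whose titles are spelled otherwise. With them, of 34 genes, 26 fell and 4 rose under drought, 15 fell and 6 rose under heat, and the difference was lower for 22 and higher for 8 (median -1.19).

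Histones and cell division genes fell under both stresses, and further under drought. Of 11 members, 10 fell under drought (median -3.56) and 9 under heat (median -0.96), and the difference was lower for 8 and higher for 2. Histone H4 (LOC544081) stood at 6.48, 6.41 and 6.48 in droughted susceptible plants, against 11.26, 11.27 and 11.14 in controls. In heated susceptible plants it stood at 10.85, 10.83 and 10.85, against 11.66, 11.62 and 11.50 in controls, and its difference was -3.77 ± 0.15. Cyclin A2 (CycA2) differed by -3.67 ± 0.28. The H1 histone-like protein LOC544142 was the exception, with 1.45 under drought and 0.55 under heat, while pcna, the sliding clamp of DNA replication, had -0.94 under drought and -1.33 under heat.

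Light harvesting and photosystem genes fell under drought for 7 of 10 members and rose for 2, whereas under heat 4 rose and none fell. CAB5, a chlorophyll a/b-binding protein of the antenna, stood at 8.15, 8.21 and 7.63 in droughted tolerant plants, against 11.97, 11.97 and 11.94 in controls, and at 9.02, 8.96 and 8.96 in droughted susceptible plants, against 12.46, 12.44 and 12.43 in controls. In the heat experiment its arrays lay at 11.77 or above except a tolerant control at 10.69. Its difference was -4.04 ± 0.22 and that of CAB6A -2.05 ± 0.27. The photosystem II polypeptide PSBR ran against the list, with a drought response of 0.26 in tolerant and 4.23 in susceptible plants and a difference of 1.48 ± 0.14.

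Of 8 genes on the abscisic acid and desiccation list, 5 rose and 2 fell under drought, and 2 rose and 1 fell under heat. The name pattern also caught 2 GABA transaminases, which do not act in abscisic acid signalling, and without them 4 rose and 1 fell under drought. Besides TAS14, the protein phosphatase 2C DIG3 differed by 1.76 ± 0.29. LeAREB, a bZIP factor that binds abscisic acid response elements, was chosen after its values were seen and differed by 1.59 ± 0.20. NCED1, the dioxygenase that makes the precursor of abscisic acid, went the other way with -1.48 ± 0.16, with a drought response of 0.12 in tolerant and -3.01 in susceptible plants. DREB1, another stress regulator chosen after its values were seen, rose by 1.83 under drought and had -1.24 in tolerant and 2.20 in susceptible plants under heat.

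Pathogenesis-related genes rose under drought for 10 of 17 and fell for 4, while under heat 1 rose and 9 fell. The osmotin-like NP24-I stood at 11.42, 11.45 and 11.50 in droughted susceptible plants, against 7.55, 7.23 and 7.41 in controls, and at 4.96, 4.60 and 4.25 in heated susceptible plants, against 6.68, 6.65 and 6.73 in controls. In tolerant plants it stood at 10.30, 10.43 and 10.40 under drought, against 9.42, 9.85 and 9.76 in controls, and at 7.63, 7.62 and 7.27 under heat, against 6.62, 6.53 and 7.60 in controls. Its heat response was thus 0.59 in tolerant and -2.08 in susceptible plants, and its difference was 3.13 ± 0.22. The PR5-like LOC543878 and PR-P69 were lower, at -2.53 ± 0.39 and -1.43 ± 0.17. PR1b1, chosen after its values were seen, moved opposite ways in the drought genotypes. It stood at 4.94, 3.38 and 2.73 in droughted tolerant plants, against 10.74, 10.85 and 10.95 in controls, and at 10.77, 10.78 and 10.77 in droughted susceptible plants, against 3.68, 4.27 and 6.35 in controls. Its mean difference of -0.66 ± 0.52 was not called. It was 1.25 with arrays raised to the reporter percentile (limma, adjusted p = 0.00758) and -1.14 after quantile normalization was applied again (limma, adjusted p = 0.0456), so its direction is not settled.

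**Figure D3:**
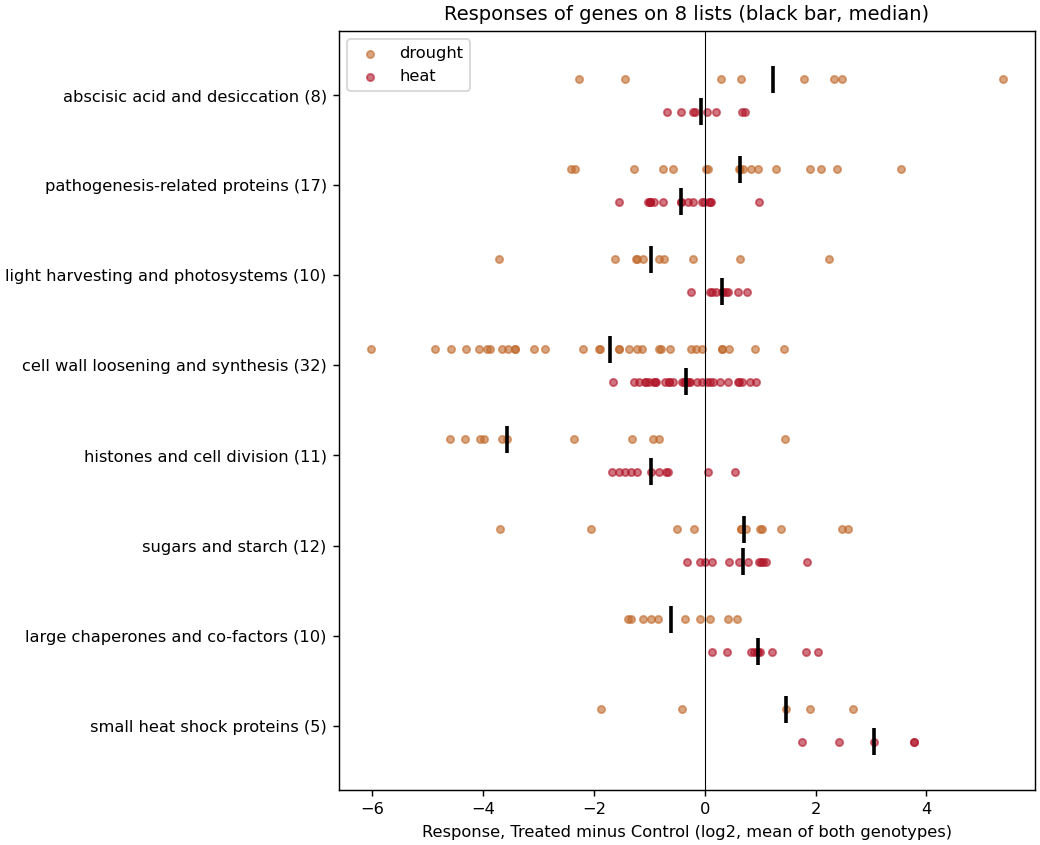
Drought (orange, upper) and heat (red, lower) responses of the genes on 8 lists, as mean log2 Treated minus Control differences of both genotypes, with list sizes in brackets and a black bar at each median. Small heat shock proteins have medians of 1.46 under drought and 3.05 under heat, and histones and cell division genes -3.56 and -0.96.

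Hormone and metabolic lists were mixed. Of 19 ethylene genes, 9 rose and 6 fell under drought and 10 rose and 4 fell under heat. The receptor-like ETR6 differed by 2.38 ± 0.30 and the ethylene-forming enzyme EFE by -2.44 ± 0.25. Of 18 jasmonate, systemin and wounding genes, 8 rose and 8 fell under drought and 7 rose and 3 fell under heat. The wound-induced proteinase inhibitor LOC543954 differed by -4.08 ± 0.29, but another of its probe sets had 2.42 under drought and 2.56 under heat, so the gene has no settled direction. Of 12 auxin genes, 4 differences were higher and 7 lower. The auxin-response repressor IAA10 differed by -3.25 ± 0.12 on a probe set whose drought response was 0.51 in tolerant and -5.80 in susceptible plants, and another of its probe sets was not called (-0.32). Of 12 sugar and starch genes, 8 rose under drought and 8 under heat, while 3 fell under drought and none under heat. The starch synthesis enzyme agpL3 differed by -1.95 ± 0.11. SNF4, a kinase complex subunit of energy sensing, differed by 2.34 ± 0.22, with 5.04 under drought in tolerant plants, whose controls were near background, and -0.08 in susceptible plants.

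Among 4 gibberellin genes, 20ox-1 and 20ox-3, which encode late enzymes of gibberellin synthesis, went apart, with differences of -2.72 ± 0.16 and 2.14 ± 0.42, although 20ox-3 was near background in 7 of 8 groups. Of 11 antioxidant genes, dehydroascorbate reductase DHAR1, which recycles ascorbate, differed by 2.66 ± 0.23. The ascorbate peroxidase APX2 differed by -1.44 ± 0.11 on its brightest probe set and by 2.63 and 2.54 on 2 others, so its direction is not settled. The aquaporin-like LOC778315 differed by -3.31 ± 0.22 and the proline transporter LeProT2 by 1.90 ± 0.19. Probe sets with no gene name here had to meet the conditions on overlap and brightness in all 4 responses. That can leave out probe sets that moved under a single stress. Among those that met them, the largest differences below 0 were -7.51 ± 0.34, on a probe set of the opposite class, and -6.86 ± 0.11. The largest above 0 was 3.11 ± 0.38, on a probe set of the shared class, while differences in the opposite class reached 5.35.

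Of 4 fruit ripening genes, 1 rose and none fell under drought, 3 fell and none rose under heat, and the difference was higher for 3 and lower for none. The ripening regulated DDTFR18 and DDTFR10/A differed by 1.4 ± 0.21 and 1.17 ± 0.16. Of 15 amino acid, GABA and polyamine genes, 7 rose and 5 fell under drought, and 7 rose and 3 fell under heat, and the glutamate decarboxylase-like LOC544313 differed by 2.02 ± 0.13. Of 16 transcription factors, the bZIP factor ZIP differed by 1.46 ± 0.13 and THM6 by -2.42 ± 0.15, and 6 differences were higher and 1 lower. Of 10 calcium, kinase and phosphatase genes, the calcium-dependent kinase cpk1 differed by 1.12 ± 0.16 and the cell cycle kinase cdc2A-1 by -1.37 ± 0.15. Of 12 protease and ubiquitin genes, 8 rose and 4 fell under drought, and 9 rose and 3 fell under heat. The leucine aminopeptidase lap2, a wound-response protein of tomato, rose under both stresses, by 2.17 under drought and 1.08 under heat. The subtilisin-like protease sbt4a differed by -4.32 ± 0.23, but by 1.05 on another probe set. Of 9 phenylpropanoid and carotenoid genes, the phytoene synthase PSY2, which opens the carotenoid pathway, differed by -1.2 ± 0.10.

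The genotypes of an experiment did not respond alike. The drought minus heat difference of tolerant plants differed from that of susceptible plants for 3565 probe sets (35.5%). Of the 4996 probe sets with a called mean difference, 4173 (83.5%) had the same sign in both genotypes. A called mean of both genotypes favours equal signs, so this share does not measure their agreement. For 2349 of the 4996 (47.0%) the genotypes' differences were themselves called different. TAS14 differed by 7.73 in tolerant and 3.39 in susceptible plants, whereas CHI3 differed by 1.58 in tolerant and 5.54 in susceptible plants. Whether these come from tolerance or from other differences between the genotypes cannot be told apart, since each experiment has a single genotype of each kind.

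**Figure D4:**
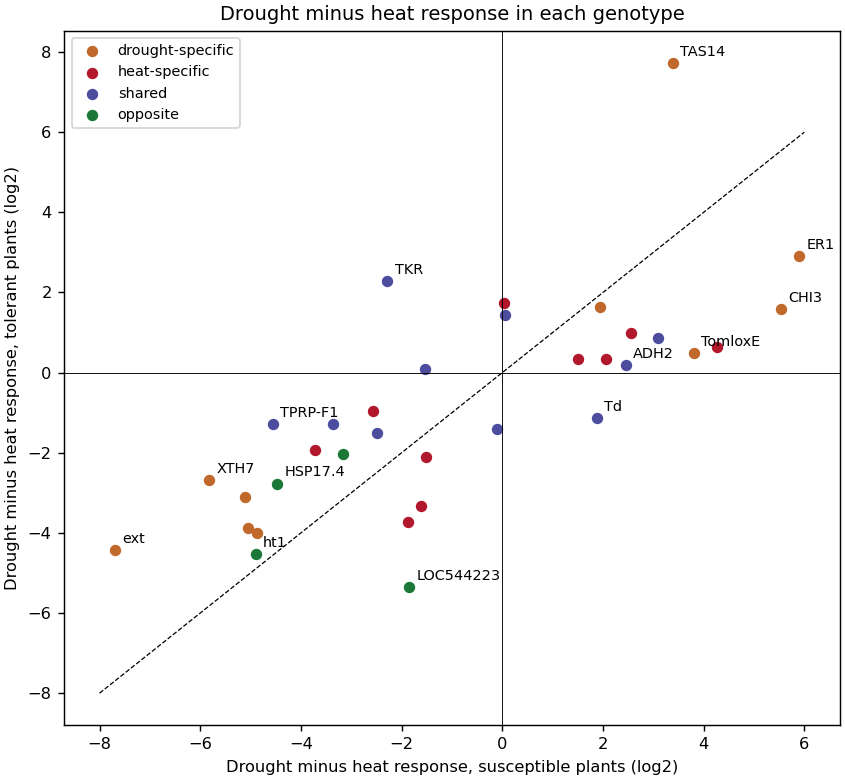
Drought minus heat response in tolerant plants (vertical axis) against susceptible plants (horizontal axis), in log2 units, for the genes named for a class, with equality on the dashed line. TAS14 lies above the line (7.73 and 3.39), and CHI3 below it (1.58 and 5.54).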

How the data were processed

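The authors deposited log2 signals per probe set. The submitters' processing notes name Affymetrix Expression Console and RMA 1.0, and the sources used here do not give whether normalization covered the 24 arrays together. RNA was taken with Trizol and biotin-labelled, per the labels' protocols. The authors also deposited a table of linear fold change ratios for each experiment (2222 and 1220 probe sets), used here for gene names only. Of 10209 probe sets, 108 AFFX and 63 reporter (RPTR) probe sets were left out of the tests. Names were single for 460 probe sets and several for 15; of 135 locus symbols, 128 were found in the RefSeq gene table and 59 received another symbol. Positions and sequences are not given, since no genome was used.

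All arrays were fitted in limma 3.58.1 (R 4.3.3; lmFit, eBayes) as 8 group means, with Benjamini-Hochberg adjustment and no further normalization, and the fit was tested on simulated data. Each gene is its probe set of highest mean. For each class and direction, genes were named by the 5 largest differences (for shared genes, the largest of the smaller response) with replicates free of overlap and the brighter group above the 95th reporter percentile. Lists of at least 3 genes gave up to 2 called differences each way. Unnamed probe sets gave 2 each way, with the conditions on overlap and brightness met in all 4 responses. Others are said to be chosen after their values were seen. Class members, lists and tests were chosen with earlier results of these data known. Of 36 correlations between the deviations of same-numbered replicates, 9 passed 0.1. In the drought experiment they ran from -0.128 to 0.116. In the heat experiment they ran from -0.342 (susceptible control with tolerant treated) to 0.358 (susceptible treated with tolerant control). Variation shared by same-numbered replicates is thus not excluded in the heat experiment, and the main fit had no term for it. The probe set of LOC778315 can match related transcripts. Alternatives covered normalization, dim probe sets, weights, separate fits, RNA integrity, the replicate block, size, background and single arrays. The number of arrays limits precision.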

Additional observations from a re-analysis of the deposited data

Results flagged for a closer look

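The drought minus heat response differed between tolerant and susceptible plants, by a test of that difference in the limma fit, for 3565 probe sets (35.5% of those tested). It also differed for 28 of the 34 genes named for a class and for 88 of all 113 genes named by symbol. The 34 genes were chosen for large responses or differences and replicates free of overlap, so their share is not a result about the classes. Values are tolerant minus susceptible, on the log2 scale. The difference was lower in tolerant plants for CHI3 (-3.96), THT1-3 (-3.63), LOC544223 (-3.50), TomloxE (-3.33), Td (-3.0), ER1 (-2.98), ADH2 (-2.26) and tEG3 (-2.22). It was also lower for LOC544055 (-1.86), tXET-B2 (-1.73), ERabp1 (-1.71), LEJA3 (-1.57), AS1 (-1.31) and XTH3 (-1.16). It was higher in tolerant plants for TKR (4.56), TAS14 (4.35), TPRP-F1 (3.27), ext (3.25), XTH7 (3.15), cdkB2 (2.08) and LeaGal (2.00). It was also higher for LEMTSHP (1.80), TGAS118 (1.71), HSP17.4 (1.71), dem (1.63), SAR2 (1.60), sus3 (1.39) and BiP/grp78 (1.15). For 3 of the 28 genes, TKR, Td and dem, the drought minus heat response had opposite signs in tolerant and susceptible plants. The spread between replicates was higher in tolerant plants, as given above for the drought experiment. In the heat experiment the median SD was 0.291 in control and 0.165 in treated tolerant plants. In susceptible plants of that experiment it was 0.093 in controls and 0.108 in treated plants.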

How the results depend on the processing

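Of the counts of called probe sets, those moved by over 1.5 times were as follows. The treat setting tested against a 1.2-fold change and also required an estimate of at least 1 in size. It called 2458 differences, 2317 drought responses, 903 heat responses and 2099 differences in susceptible plants, against 4996, 5919, 4202 and 3261. Array weights gave 7252 heat responses and 6845 differences in susceptible plants, and group weights, chosen after seeing the data, gave 2982 differences in tolerant and 6515 in susceptible plants, against 5050 and 3261. With each array left out in turn, 4677 to 5352 differences, 5548 to 6268 drought responses and 3595 to 4618 heat responses were called, and 1123 to 1253 drought-specific, 228 to 403 heat-specific, 248 to 289 shared and 33 to 57 opposite probe sets were found. The lowest heat-specific count came without heat tolerant control replicate 3 and the highest without heat tolerant control replicate 2. Differences called in tolerant plants numbered 4665 to 5381, those in susceptible plants 2839 to 3708, and those between the genotypes 3118 to 4077. With the replicate block 4937 differences were called, and of the genes discussed it ended only the call of Td (adjusted p = 0.0595). The share of higher differences was 48.2% on the deposited values, 38.7% without the dimmest 25% of probe sets and 65.0% with values raised to the reporter percentile, and for heat 58.8%, 67.2% and 35.2%. Requiring that size also ended the call of 13 genes of the lists and classes, by its own construction. With raised values the differences of PR1b1 (1.25) and TKR (1.09) were called higher, though neither was called on the deposited values. The cause was not tested. Signal over background limits the sizes given for genes near background.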
